A study of Mus musculus with 12 samples.

Results

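The genes of the constitutive proteasome were followed in the hearts of mice treated with cisplatin, a platinum drug used against solid tumors whose side effects include damage to the heart. Members were chosen by symbol, as every gene named Psma, Psmb, Psmc, Psmd, Psme, Psmf or Psmg with a number, together with Adrm1, and without the immunoproteasome subunits Psmb8, Psmb9 and Psmb10. The rule found 46 of the 55885 genes listed, and 44 of them passed the filter on low values, a TPM of 1 or more in 3 or more hearts, and were tested. Neither Psma8, a core subunit of the testis, nor Psmb11, a core subunit of the thymus, reached that level, with 0.03 to 0.82 TPM for Psma8 and at most 0.02 TPM for Psmb11 in any heart.

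RNA-seq covered 12 hearts of male C57BL/6 mice (C57BL/6J in the methods), with 3 hearts in each of 4 groups. The methods give the mice used for the experiments as 8 weeks old and do not state their age at collection. The Saline group was wild-type and received no cisplatin, and its labels call it untreated. The CDDP group was wild-type and received cisplatin intraperitoneally at 6 mg/kg on days 1, 8 and 15. The STING-/- group lacked STING (Tmem173-/- in the labels, a null allele in every cell of the body, in purchased mice) and received no cisplatin, and the STING-/-+CDDP group was of that genotype with the same injections. The methods name different suppliers for the wild-type and the STING-/- mice, so genotype and supplier cannot be told apart. STING is an adaptor that turns the sensing of DNA in the cytoplasm into interferon and inflammatory signals, and the study asked whether its loss changes the response of the heart to cisplatin. Hearts were collected on day 22, and the sources do not say which chambers each sample held.

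The proteasome degrades proteins that carry chains of ubiquitin. Its core particle is a barrel of stacked rings, with alpha subunits that form the gate and beta subunits that hold the catalytic sites, and a regulatory particle sits on the barrel, binds ubiquitin, unfolds the substrate with a ring of ATPases and removes the chain in its lid. Other activators can take the place of the regulatory particle, dedicated chaperones assemble both particles, and interferon replaces the catalytic subunits with those of the immunoproteasome. In heart muscle the proteasome clears damaged and misfolded contractile proteins.

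Cardiomyocyte markers were high in every heart, with a summed TPM of 8 genes of 27010 to 53570. The summed TPM of 4 atrial markers ran from 310 to 38939 within the Saline group alone, and from 854 to 14621 in CDDP, so that atrial tissue differed between hearts of a group. Saline hearts held 4146 to 9317 TPM of 5 red blood cell genes, above every other heart (42.0 to 1465). Sting1 was listed at 6.50 to 12.3 TPM in Saline, 5.62 to 22.1 in CDDP, 2.87 to 5.96 in STING-/- and 3.37 to 4.67 in STING-/-+CDDP. The STING-/- hearts were all below the Saline hearts, yet neither the 0.85 lower log2 level in STING-/- than in Saline nor the 1.18 lower level in STING-/-+CDDP than in CDDP passed the test (adjusted p = 1 and 0.147).

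Levels of proteasome genes differed within each part of the particle. Averaged over the 12 hearts, alpha ring genes lay between 34.7 TPM (Psma2) and 176 TPM (Psma7), and beta ring genes between 80.1 TPM (Psmb1) and 185 TPM (Psmb6). ATPase genes lay between 43.5 TPM (Psmc6) and 217 TPM (Psmc3), the other base genes between 45.6 TPM (Psmd1) and 126 TPM (Psmd4), and lid genes between 27.3 TPM (Psmd14) and 90.8 TPM (Psmd7). TPM divides reads by gene length, so these levels can be set side by side. The chaperones were lower, from 6.18 TPM (Psmd5) to 9.67 TPM (Psmd10) for the regulatory particle and from 9.68 TPM (Psmg3) to 31.1 TPM (Psmg4) for the core. Activators spread from 24.6 TPM (Psme3) to 121 TPM (Psme1), and the core inhibitor Psmf1 stood at 8.82 TPM.

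**Figure D1:**
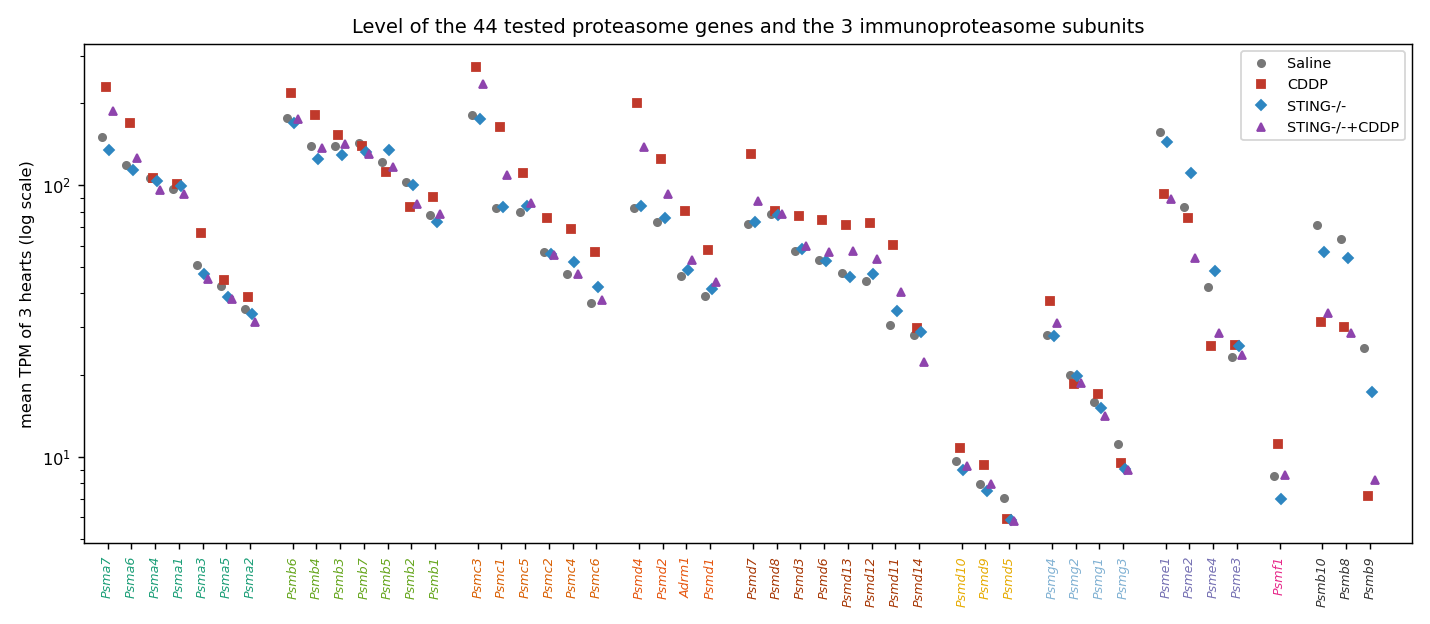
Mean TPM of 3 hearts on a log axis for the 44 tested proteasome genes and the 3 immunoproteasome subunits, with a marker for each group and gene names colored by class. Cisplatin hearts of the wild-type (squares) stand above the other groups for most Psmc and Psmd genes. Most core genes lie closer together, apart from Psma7, Psma6 and Psmb4, which are highest in CDDP. Psme1, Psme4, Psmb8, Psmb9 and Psmb10 are lower in both cisplatin groups.

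Cisplatin raised the genes of the regulatory particle in wild-type hearts while most genes of the core did not pass the test. In CDDP against Saline, 20 of the 44 tested members passed the test, 18 higher and 2 lower, where 18.9% of all 13815 tested genes passed (8.52% higher and 10.4% lower). The median log2 fold change of the members was 0.33, beside -0.00 for all tested genes. All values are differences of log2(TPM + 1), tested with limma and adjusted by the Benjamini-Hochberg method over all tested genes. Of the 18 subunits of the regulatory particle, 15 rose, with a median of 0.59 and a range of 0.05 to 1.26. Of the 14 tested core subunits, 3 rose, with a median of 0.13 and a range of -0.28 to 0.60. The difference between both particles was not tested. In 23 members all 3 CDDP hearts were above the Saline hearts and in 2 all were below, where 14.9% and 17.1% of all tested genes behaved so.

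The largest rise was that of a ubiquitin receptor of the base. Psmd4, which binds ubiquitin chains, was at 78.3, 94.4 and 75.5 TPM in Saline hearts, 193, 186 and 220 TPM in CDDP, 84.3, 90.6 and 76.3 TPM in STING-/-, and 146, 138 and 130 TPM in STING-/-+CDDP. Every CDDP heart was above every other heart, and the STING-/-+CDDP hearts lay between CDDP and both groups without cisplatin, with no overlap. The log2 fold change of Psmd4 in CDDP against Saline was 1.26 (SE 0.13, adjusted p = 4.07e-04), a mean 2.41 times that of Saline.

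Adrm1, a second ubiquitin receptor of the regulatory particle, was at 46.2, 50.1 and 42.9 TPM in Saline and 82.7, 75.5 and 84.0 TPM in CDDP, against 43.4, 52.0 and 51.0 TPM in STING-/- and 52.1, 55.0 and 52.0 TPM in STING-/-+CDDP. The CDDP hearts stood apart from the other 9 hearts, which lay between 42.9 and 55.0 TPM. Its log2 fold change in CDDP against Saline was 0.79 (SE 0.12, adjusted p = 0.00188). Psmd2, the scaffold on which shuttle factors deliver ubiquitinated proteins, rose by 0.77 (SE 0.13, adjusted p = 0.0028), and Psmd1, the other large scaffold of the base, rose by 0.56 (adjusted p = 0.0167). With these, 4 of 4 base subunits outside the ATPase ring were higher.

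In the ATPase ring 6 of 6 genes passed the test, with a median of 0.56. Psmc1, an ATPase whose tail helps to open the gate of the core, was at 79.8, 91.0 and 76.7 TPM in Saline, 158, 155 and 178 TPM in CDDP, 80.4, 85.1 and 84.9 TPM in STING-/-, and 116, 114 and 96.3 TPM in STING-/-+CDDP. As for Psmd4, the CDDP hearts were highest and the STING-/-+CDDP hearts came next, above every heart without cisplatin. Psmc1 rose by 0.98 (SE 0.12, adjusted p = 8.02e-04) in CDDP against Saline. The other ATPases rose less, by 0.61 for Psmc6, 0.59 for Psmc3, 0.54 for Psmc4, 0.47 for Psmc5 and 0.41 for Psmc2, with adjusted p-values from 0.00343 to 0.0435. Psmc2 passed in 11 of the 25 other settings tried, and Psmc4, Psmc5, Psmc6 and Psmc2 did not pass when only the 6 hearts compared were fitted.

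In the lid, 5 of 8 genes rose. Psmd11, which clamps the regulatory particle to the core, was at 29.6, 34.3 and 27.6 TPM in Saline, 60.7, 58.3 and 61.3 TPM in CDDP, 30.3, 37.8 and 34.9 TPM in STING-/-, and 42.5, 40.9 and 37.9 TPM in STING-/-+CDDP. Its CDDP values lay close together and far above the rest, and the STING-/-+CDDP hearts came next, the lowest of them level with the highest STING-/- heart. The log2 fold change of Psmd11 was 0.96 (SE 0.13, adjusted p = 0.00108). Psmd7, the partner of the lid deubiquitinase, rose by 0.84 (SE 0.15, adjusted p = 0.00366), and Psmd12, Psmd13 and Psmd6, structural subunits of the lid, rose by 0.70, 0.60 and 0.48.

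The deubiquitinase itself did not pass. Psmd14, which cuts the ubiquitin chain off the substrate, was at 27.9, 30.6 and 26.0 TPM in Saline and 33.6, 22.03 and 33.8 TPM in CDDP. CDDP 2 was the lowest of these 6 hearts and the other CDDP hearts were the highest, so the groups overlapped. Psmd14 differed by 0.06 (95% interval -0.35 to 0.46, adjusted p = 0.86). Psmd8 differed by 0.05 (-0.26 to 0.36) and Psmd3 by 0.42 (0.09 to 0.74, adjusted p = 0.0751), and neither passed. Sem1, a small lid subunit outside the naming rule, differed by -0.08 (-0.33 to 0.17).

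**Figure D2:**
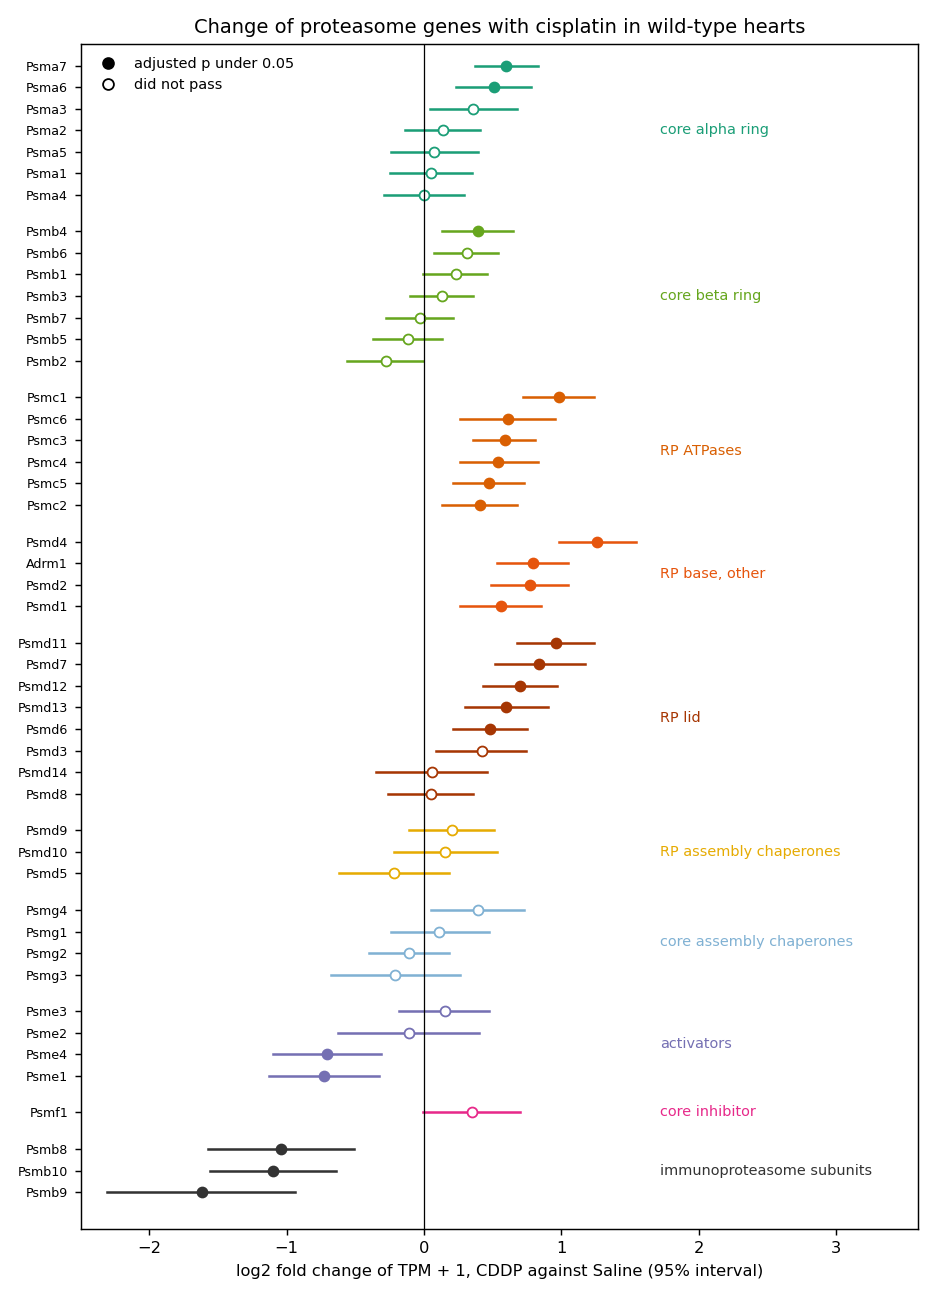
Log2 fold change of TPM + 1 in CDDP against Saline for each tested proteasome gene and the immunoproteasome subunits, with 95% intervals from the limma model of 12 hearts, filled where the adjusted p was under 0.05. The 15 filled symbols of the regulatory particle (RP) lie to the right of 0, most core genes lie near 0, and Psme1, Psme4 and the immunoproteasome subunits lie to the left.

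The starts of a few genes are shown to set members that rose beside members that did not. Each window is the 180 bases before the transcription start in RefSeq (GRCm38.p6), read along the gene, which need not be the start in the annotation used for positions. By those positions the Psme1 window lies wholly inside the gene, and the windows of Psmc1, Adrm1 and Psmb5 reach into theirs. In GENCODE M21 (GRCm38), Psmd4 lies at chr3:95032694-95042614, Psmc1 at chr12:100110154-100123405, Adrm1 at chr2:180171485-180176286, Psmb5 at chr14:54614119-54618022 and Psme1 at chr14:55578123-55581529. Capitals mark matches on either strand to CCAAT, a box bound by the general factor NF-Y, or to TGACNNNGC, the core of the antioxidant response element through which NFE2L1 and NFE2L2 act. The first letters of the latter also begin the AP-1 and cAMP response motifs, which were not searched. Psmd4 (chr3:95042615-95042794, minus strand), Psmc1 (chr12:100110022-100110201, plus strand) and Adrm1 (chr2:180171408-180171587, plus strand) stand for the genes that rose, Psmb5 (chr14:54617996-54618175, minus strand) for the core and Psme1 (chr14:55578314-55578493, plus strand) for the activators.
Psmd4: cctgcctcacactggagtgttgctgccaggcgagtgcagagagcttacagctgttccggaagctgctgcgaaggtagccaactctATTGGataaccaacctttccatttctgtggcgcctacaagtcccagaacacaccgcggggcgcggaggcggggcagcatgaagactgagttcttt
Psmc1: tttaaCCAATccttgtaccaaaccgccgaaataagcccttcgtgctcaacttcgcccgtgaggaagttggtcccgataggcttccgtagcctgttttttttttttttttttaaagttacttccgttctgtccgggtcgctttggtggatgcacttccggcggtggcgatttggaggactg
Adrm1: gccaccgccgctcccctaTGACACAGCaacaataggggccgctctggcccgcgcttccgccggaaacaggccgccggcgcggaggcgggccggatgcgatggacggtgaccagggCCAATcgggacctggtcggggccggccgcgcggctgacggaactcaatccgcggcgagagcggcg
Psmb5: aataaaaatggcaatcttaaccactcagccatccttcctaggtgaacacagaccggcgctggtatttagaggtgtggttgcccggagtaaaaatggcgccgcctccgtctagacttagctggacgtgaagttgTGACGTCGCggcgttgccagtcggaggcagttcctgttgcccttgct
Psme1: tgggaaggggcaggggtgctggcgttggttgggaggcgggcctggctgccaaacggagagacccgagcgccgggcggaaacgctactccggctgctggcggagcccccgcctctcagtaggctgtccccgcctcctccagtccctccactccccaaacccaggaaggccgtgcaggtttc

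Of these 5 windows, Adrm1 held both motifs, at different places, Psmd4 and Psmc1 held CCAAT alone, Psmb5 held TGACNNNGC alone and Psme1 held neither. RefSeq windows of 300 bases (250 before the start and 50 after) matched 38 of the 46 members. TGACNNNGC was found in 7 of these 38 genes (Adrm1, Psmb5, Psmb6, Psmc6, Psmd12, Psmd9 and Psme4) and in 12.4% of all 32851 windows. CCAAT was found in 14 of the 38 genes and in 37.4% of all windows, and Adrm1 was the only member with both, as were 4.37% of all windows. Among the tested members, those with TGACNNNGC had a median log2 fold change in CDDP against Saline of 0.31 (7 genes) and those without it 0.36 (30 genes). Those with CCAAT had a median of 0.36 (13 genes) and those without it 0.33 (24 genes). The split by CCAAT in the 5 windows shown was thus not seen over the tested members. A match is a run of letters and not evidence of binding.

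The gate of the core moved in part. Psma7, a subunit of the alpha ring, was at 165, 144 and 145 TPM in Saline, 226, 229 and 233 TPM in CDDP, 140, 140 and 126 TPM in STING-/-, and 198, 189 and 175 TPM in STING-/-+CDDP. All cisplatin hearts of both genotypes were above all hearts without it. Psma7 rose by 0.60 (SE 0.11, adjusted p = 0.004) in CDDP against Saline, and Psma6, another alpha subunit, rose by 0.51 (adjusted p = 0.0182). The other 5 tested alpha genes did not pass, from 0.00 for Psma4 (95% interval -0.29 to 0.29) to 0.36 for Psma3 (0.04 to 0.68, adjusted p = 0.103).

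Psma3 has near-identical copies in the genome that held 35.1% to 56.5% of the TPM shared between it and them in each heart. With their TPM added, its log2 fold change was 0.40 (adjusted p = 0.0514), so how reads were divided between the gene and its copies bears on its value.

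The catalytic subunits did not pass. Psmb5, which carries the chymotrypsin-like site, was at 138, 114 and 115 TPM in Saline, 110, 114 and 111 TPM in CDDP, 124, 144 and 136 TPM in STING-/-, and 123, 116 and 111 TPM in STING-/-+CDDP. Without its near-identical copies counted, the STING-/- hearts were all above the cisplatin hearts of both genotypes. The CDDP and Saline hearts overlapped, and 1 Saline heart stood above the rest of both groups. Psmb5 differed by -0.12 (95% interval -0.37 to 0.13) in CDDP against Saline, or by -0.25 (adjusted p = 0.11) with its copies. The copies reached 24.8% of the shared TPM in Saline and 12.8% in CDDP but were listed at 0 in both STING-/- groups. With them added, the difference in STING-/- against Saline changed from 0.15 to -0.16, so its sign depended on whether the copies were counted. Psmb7, the trypsin-like subunit, differed by -0.03 (-0.28 to 0.21).

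Psmb6, the caspase-like subunit, was at 191, 174 and 165 TPM in Saline and 216, 223 and 217 TPM in CDDP. Here all CDDP hearts exceeded all Saline hearts, but the difference of 0.31 (0.07 to 0.54) did not pass (adjusted p = 0.0653). The only beta gene that did was Psmb4, a structural subunit, at 0.39 (SE 0.12, adjusted p = 0.0416), and it did so in 9 of the 25 other settings tried. Psmb2 had the lowest value of the ring, -0.28 (-0.56 to -0.01, adjusted p = 0.137).

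**Figure D3:**
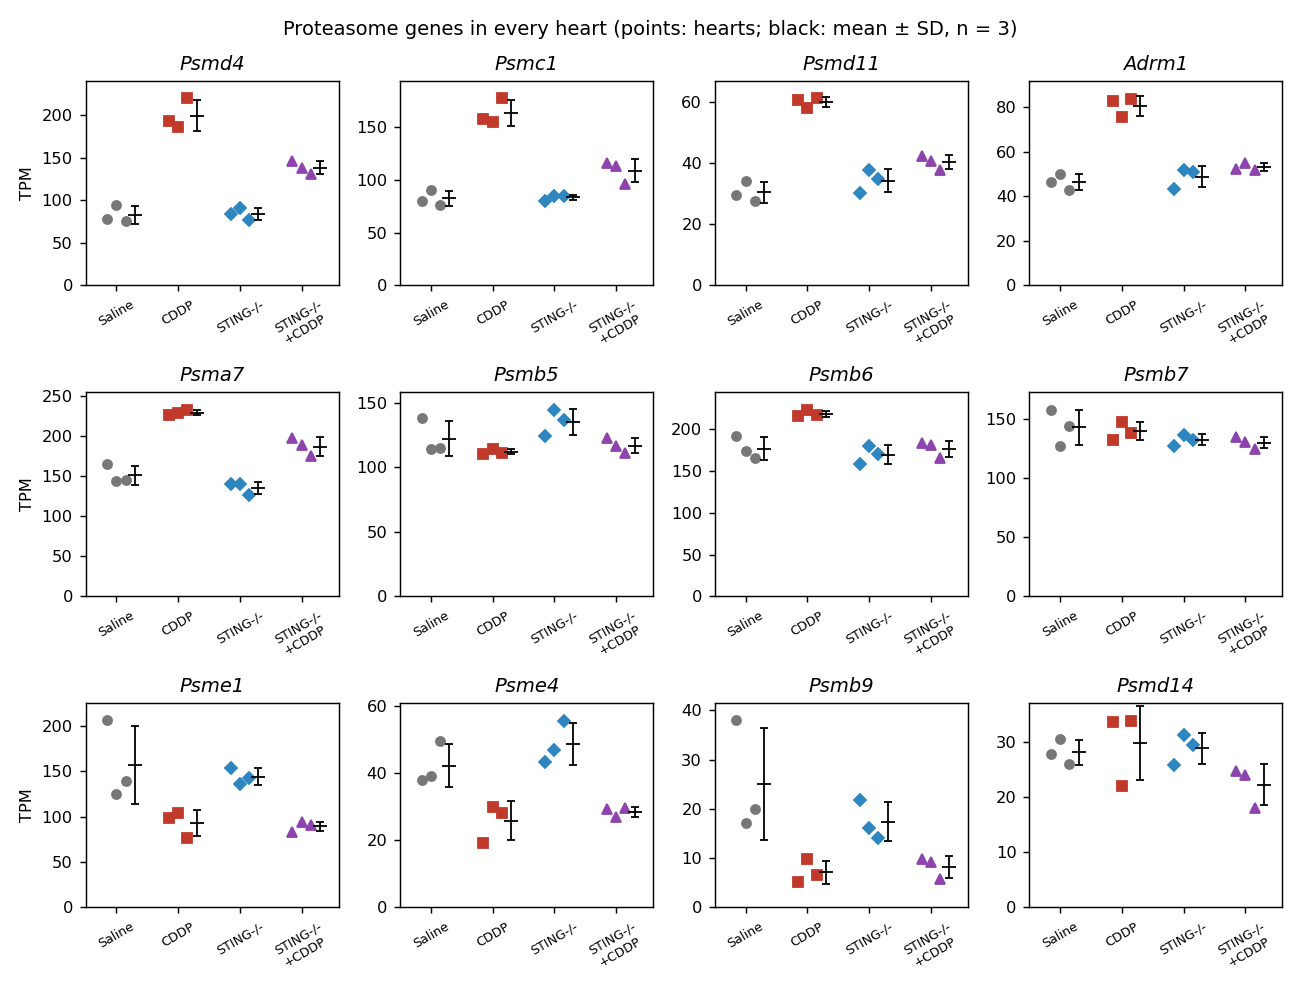
TPM of 12 proteasome genes in every heart, with the mean and SD of 3 hearts in black and each axis starting at 0. Psmd4, Psmc1 and Psmd11 show the order CDDP, STING-/-+CDDP and then both groups without cisplatin. Psmb7 shows overlapping groups, and Psmb5 overlaps between CDDP and Saline while its STING-/- hearts lie above all cisplatin hearts. The values of Psmb5 leave out its near-identical copies. Psme1, Psme4 and Psmb9 are lower in both cisplatin groups.

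The shift between particles was visible within each heart. The mean TPM of the 18 regulatory particle genes, divided by that of the 14 core genes, was 0.557, 0.630 and 0.579 in Saline and 0.808, 0.781 and 0.839 in CDDP. It was 0.614, 0.641 and 0.631 in STING-/- and 0.701, 0.726 and 0.705 in STING-/-+CDDP. No CDDP heart overlapped with any other group, STING-/-+CDDP lay between, and the highest Saline heart lay within the range of STING-/-. As a ratio within a heart, this value does not depend on the scaling between hearts. The summed TPM of all 46 members was 3056 ± 238 (SD, n = 3) in Saline, 3885 ± 163 in CDDP, 3029 ± 131 in STING-/- and 3139 ± 172 in STING-/-+CDDP.

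**Figure D4:**
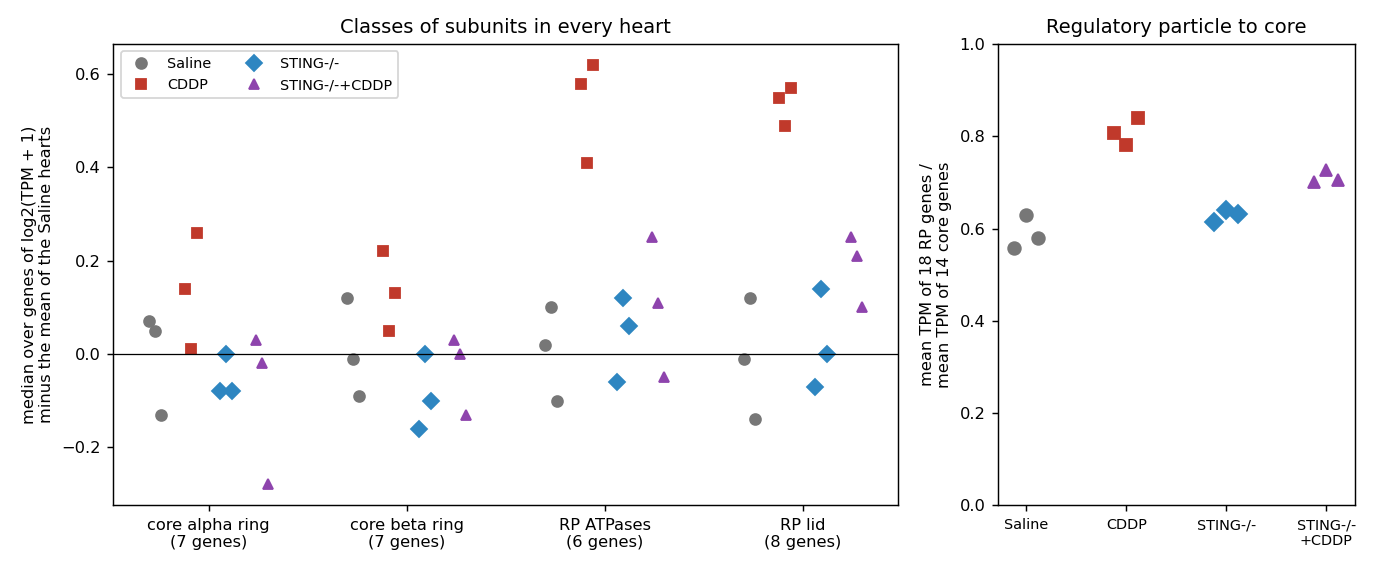
Left, median over the genes of a class of log2(TPM + 1) minus the mean of the Saline hearts, for each heart. Right, mean TPM of the 18 regulatory particle (RP) genes over mean TPM of the 14 core genes in each heart. ATPase and lid medians of CDDP hearts lie at 0.41 to 0.62, above those of the 9 other hearts. Alpha and beta ring medians of CDDP hearts overlap those of Saline hearts. They lie above those of STING-/- for both rings, and above those of STING-/-+CDDP for the beta ring only.

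Assembly factors did not pass the test. None of the 3 chaperones of the regulatory particle (Psmd5, Psmd9 and Psmd10) and none of the 4 chaperones of the core (Psmg1 to Psmg4) passed in limma, and at an unadjusted p under 0.05 the counts were 0 and 1, where 33.9% of all tested genes had such a p. Psmg4 had the largest difference, 0.39 (0.05 to 0.73, adjusted p = 0.0975), with all CDDP hearts over all Saline hearts. Pomp, the maturation factor of the core, differed by 0.20 (-0.12 to 0.52). The inhibitor Psmf1 was at 7.35 to 9.34 TPM in Saline and 9.75 to 13.9 TPM in CDDP, without overlap, but its difference of 0.35 (-0.01 to 0.70) did not pass (adjusted p = 0.159).

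Activators went the other way or did not pass. Psme1, a subunit of the interferon-induced activator that caps the core without ATPases, was at 206, 125 and 139 TPM in Saline, 98.6, 103 and 76.2 TPM in CDDP, 154, 136 and 142 TPM in STING-/-, and 83.5, 93.7 and 90.2 TPM in STING-/-+CDDP. All 6 cisplatin hearts were below all 6 hearts without it, and Saline 1 was far above the others. Psme1 fell by 0.73 (SE 0.18, adjusted p = 0.0177) in CDDP against Saline. Without Saline 1 the value was -0.52 (adjusted p = 0.0643), without CDDP 3 it was -0.60 (adjusted p = 0.0589), and under scaling by the median of ratios it was -0.73 (adjusted p = 0.0557).

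Psme2, the partner of Psme1 in a single ring, did not pass in wild-type hearts, at 112, 70.2 and 67.9 TPM in Saline and 88.0, 63.7 and 75.1 TPM in CDDP. These groups overlapped, with 1 Saline heart above and 1 CDDP heart below all others, and with a difference of -0.11 (-0.63 to 0.40). The ratio of Psme1 to Psme2 was 1.79 to 2.05 in Saline and 1.02 to 1.62 in CDDP, and 1.03 to 1.70 in STING-/- and 1.47 to 1.80 in STING-/-+CDDP, so the genotypes did not show the same order. Exons of Psme1 overlap those of Emc9 on the opposite strand, and the sources do not say whether the libraries kept strand.

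Psme4, a large nuclear activator that also acts on acetylated histones, was at 37.8, 39.1 and 49.6 TPM in Saline, 19.1, 29.9 and 28.2 TPM in CDDP, 43.3, 46.9 and 55.5 TPM in STING-/-, and 29.2, 26.8 and 29.4 TPM in STING-/-+CDDP. Again the 6 cisplatin hearts were below the 6 others. It fell by 0.71 (SE 0.18, adjusted p = 0.02), and without Saline 3 by 0.59 (adjusted p = 0.0719). Psme3, the nuclear relative of Psme1, differed by 0.15 (-0.18 to 0.47).

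The immunoproteasome subunits, left out of the members by the rule, were lower in CDDP, 3 of 3. Psmb9 was at 38.1, 17.2 and 19.9 TPM in Saline, 5.20, 9.76 and 6.61 TPM in CDDP, 21.8, 16.2 and 14.1 TPM in STING-/-, and 9.81, 9.21 and 5.70 TPM in STING-/-+CDDP. No cisplatin heart reached any heart without cisplatin. Psmb9 fell by 1.62 (SE 0.31, adjusted p = 0.00573), Psmb10 by 1.10 (adjusted p = 0.00547) and Psmb8 by 1.04 (adjusted p = 0.0139) in CDDP against Saline. Of the TPM of the 3 constitutive and 3 inducible catalytic genes together, the inducible ones made up 31.1%, 23.0% and 24.2% in Saline, 13.2%, 13.0% and 11.9% in CDDP, 26.4%, 22.8% and 18.4% in STING-/-, and 13.6%, 16.2% and 13.0% in STING-/-+CDDP.

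Markers of several other cell types differed between the same groups. The summed TPM of 6 macrophage markers was 393 to 498 in Saline and 114 to 232 in CDDP (5 of 6 lower), and 358 to 539 in STING-/- and 157 to 304 in STING-/-+CDDP (1 of 6 lower). The 5 endothelial markers summed to 485 to 635 TPM in Saline and 340 to 420 TPM in CDDP (4 of 5 lower), 3 of 5 fibroblast markers were lower although their sum was 706 to 1736 TPM in Saline and 965 to 2064 TPM in CDDP, the 5 red blood cell genes fell with cisplatin (5 of 5 lower), and the 5 lymphocyte markers summed to 1.85 to 5.49 TPM in Saline and 0.79 to 1.29 TPM in CDDP. The 4 neutrophil markers summed to 6.99 to 32.1 TPM in Saline and 26.0 to 1086 TPM in CDDP, where CDDP 1 stood apart, and none of them passed. None of these markers was at 0 in all hearts of a group. Their part in the fall of Psme1, Psme4 and the immunoproteasome genes was not tested. In tissue RNA, fewer cells of a type and less RNA per cell cannot be told apart.

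The lists of neighboring functions are read against the 18.9% of all tested genes that passed. Of 6 genes that control proteasome transcription, 3 passed, all higher. Ddi2, the protease that activates the transcription factor NFE2L1, was at 5.87, 8.53 and 5.84 TPM in Saline, 25.9, 20.1 and 16.9 TPM in CDDP, 6.17, 7.95 and 7.80 TPM in STING-/-, and 10.5, 8.97 and 8.20 TPM in STING-/-+CDDP. The CDDP hearts were far above the other 9. Ddi2 rose by 1.5 (SE 0.20, adjusted p = 0.00103), Mafk, a small Maf partner of NFE2L1 and NFE2L2, rose by 1.13 (adjusted p = 0.00293) and Ngly1, the glycanase that also processes NFE2L1, rose by 0.58 (adjusted p = 0.0385). The factors themselves did not pass, with -0.16 (-0.45 to 0.12) for Nfe2l1 and 0.52 (0.03 to 1.01, adjusted p = 0.126) for Nfe2l2.

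Among 9 tested partners of the proteasome, Uchl5, the deubiquitinase held by Adrm1, rose by 0.74 (adjusted p = 0.0273), and Txnl1, a thioredoxin-like protein of the regulatory particle, rose by 0.56 (adjusted p = 0.0342). Of 14 genes of ubiquitin and its delivery, 3 rose, namely Nploc4, a cofactor of the unfoldase Vcp, by 0.75 (adjusted p = 0.00725), and the ubiquitin genes Rps27a by 0.62 (adjusted p = 0.0167) and Ubb by 0.52 (adjusted p = 0.0138). Fbxo32, a muscle ubiquitin ligase of atrophy, was the only 1 of 6 ligases to pass, at 1.74 (SE 0.29, adjusted p = 0.00293), with 15.3 to 17.7 TPM in Saline and 33.7 to 76.4 TPM in CDDP. The shares of the partner, ubiquitin and ligase lists that passed were close to that of all genes. These calls were all higher, where 8.52% of all tested genes passed as higher. In the ubiquitin list 14 of 14 differences were positive, with a median of 0.36 beside -0.003 for all tested genes. For 8 of these 14 genes the groups did not overlap, with CDDP higher, as for 14.9% of all tested genes. Partners had 5 positive and 4 negative differences (median 0.18), and ligases 5 and 1 (median 0.36). Whether a list as a whole differed from all genes was not tested.

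How many members passed in CDDP against Saline depended on the hearts in the fit. The count was 20 in the model of 12 hearts, 9 when only the 6 hearts compared were fitted, 12 without Saline 3 and 12 without CDDP 3. Of all 13815 tested genes, 2610, 822, 1736 and 2023 passed in these fits, in the same order. Saline 3 was the lowest of its group for 35 of the 44 genes and CDDP 3 the highest of its group for 28. The same 9 genes, Psmd4, Psmc1, Psmd11, Psmd7, Adrm1, Psmd2, Psmd12, Psmc3 and Psma7, passed in all 25 other settings. With the atrial markers as a covariate, chosen after the values were seen, 18 members passed, all of them among the 20, where 2880 of all tested genes passed.

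Without cisplatin, loss of STING was accompanied by no detectable change of proteasome genes. In STING-/- against Saline, 0 of 44 members passed in limma and 0 had an unadjusted p under 0.05, where 0.0724% and 3.69% of all tested genes did so. The members' median was -0.02, and single values ran from -0.30 (Psmg3) to 0.40 (Psme2, 95% interval -0.11 to 0.92). The median standard error of a difference was 0.216 over all genes. For the core and regulatory particle subunits it ran from 0.10 (Psmc3) to 0.19 (Psmd14). Changes above these sizes could also have missed the threshold.

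With cisplatin, most proteasome genes were lower in STING-/- hearts than in wild-type hearts. In STING-/-+CDDP against CDDP, 40 of 44 differences were negative, with a median of -0.31 beside -0.095 for all tested genes. The CDDP hearts are the same as in CDDP against Saline, so high values in them would move both comparisons. For 28 members every STING-/-+CDDP heart was below every CDDP heart, as for 15.6% of all tested genes, and 15 of these were regulatory particle subunits and 8 core subunits. Only 2 members passed, both lower, where 0.854% of all genes passed as lower and 1.22% in either direction. Adrm1 fell by 0.60 (SE 0.12, adjusted p = 0.0432) and Psmc1 by 0.59 (SE 0.12, adjusted p = 0.0452), from the values given above.

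These calls sat at the threshold. Leaving out 1 heart moved the adjusted p of Adrm1 to between 0.0518 and 0.142 in 10 of 12 cases, and that of Psmc1 to between 0.0596 and 0.163 in 10 of 12, while their log2 values stayed between -0.64 and -0.50. Psmd11 at -0.56 (adjusted p = 0.0563), Psmc4 at -0.54 (0.0629), Psmd4 at -0.52 (0.0663) and Psmd7 at -0.56 (0.0836) did not pass. Under scaling by the median of ratios the median of all genes was 0.00 and that of the members -0.19. Then 4 members passed as lower (Psmc1, Psmd4, Psmd7 and Psmd11), where 389 of all 13815 tested genes did, beside 118 without that scaling. STING-/-+CDDP 3 was the lowest of its group for 38 of 44 members and also had the highest share of mitochondrially encoded TPM of all 12 hearts, 27.6%.

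Core genes and activators had differences of both signs, and none passed. Among the core genes the lowest were Psma3 at -0.54 (adjusted p = 0.0859), Psma6 at -0.42 (adjusted p = 0.109) and Psmb4 at -0.41 (adjusted p = 0.101), each with the STING-/-+CDDP hearts all below the CDDP hearts, beside a core median of -0.22 and a regulatory particle median of -0.43. Of the catalytic subunits, Psmb5 differed by 0.06 (-0.19 to 0.31), or by -0.12 with its copies added. Psmb7 differed by -0.10 (-0.34 to 0.14) and Psmb6 by -0.31 (-0.54 to -0.08, adjusted p = 0.148). Psme2 was at 56.8, 54.9 and 50.1 TPM in STING-/-+CDDP, below every CDDP heart, with a difference of -0.47 (-0.98 to 0.05). Ddi2 fell by 1.09 (SE 0.20, adjusted p = 0.0303), and it was the only gene of the neighboring lists to pass in this comparison. The immunoproteasome genes differed by -0.08 to 0.18, and none passed.

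Within STING-/- hearts, cisplatin raised Psmd4 alone among the members. In STING-/-+CDDP against STING-/-, 1 of 44 members passed, where 0.934% of all tested genes did (0.253% higher), and Psmd4 was 0.72 higher (SE 0.13, adjusted p = 0.0267). Leaving out any 1 of the 6 hearts compared ended the call, with log2 values of 0.65 to 0.78 and adjusted p-values of 0.0722 to 0.112. Psma7 at 0.46 (adjusted p = 0.0699) and Psmc3 at 0.41 (adjusted p = 0.0851) did not pass, although all STING-/-+CDDP hearts were above all STING-/- hearts for both genes. The groups did not overlap for 11 members that were higher and 6 that were lower, where 7.28% and 16.9% of all tested genes behaved so. The members' median was 0.04 beside -0.107 for all tested genes, and 0.16 beside -0.01 under scaling by the median of ratios.

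Of the activators, Psme2 at -0.99 (SE 0.24, adjusted p = 0.0775), Psme4 at -0.74 (adjusted p = 0.0823) and Psme1 at -0.69 (adjusted p = 0.111) did not pass, with every cisplatin heart below every STING-/- heart. They passed under some settings, all 3 of them with heart weights, where 613 of all tested genes passed beside 129 without. The immunoproteasome genes were at -1.0 for Psmb9, -0.88 for Psmb8 and -0.72 for Psmb10, and none passed (adjusted p = 0.13 to 0.169).

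The responses of both genotypes, which share no hearts, were set side by side. Of the 44 members, 33 had the same sign in both, 24 higher and 9 lower, and Psmd4 was the only member to pass in both. Across genes, which are not independent replicates, Pearson's r was 0.78 and Spearman's rho 0.75. Neither these nor the counts of signs were worked out for all tested genes. For 37 of 44 members the log2 change was larger in the wild-type. Psmc1 changed by 0.98 in the wild-type and 0.37 in STING-/-, Psmd11 by 0.96 and 0.23, Adrm1 by 0.79 and 0.12, and Psmc6 by 0.61 and -0.16.

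**Figure D5:**
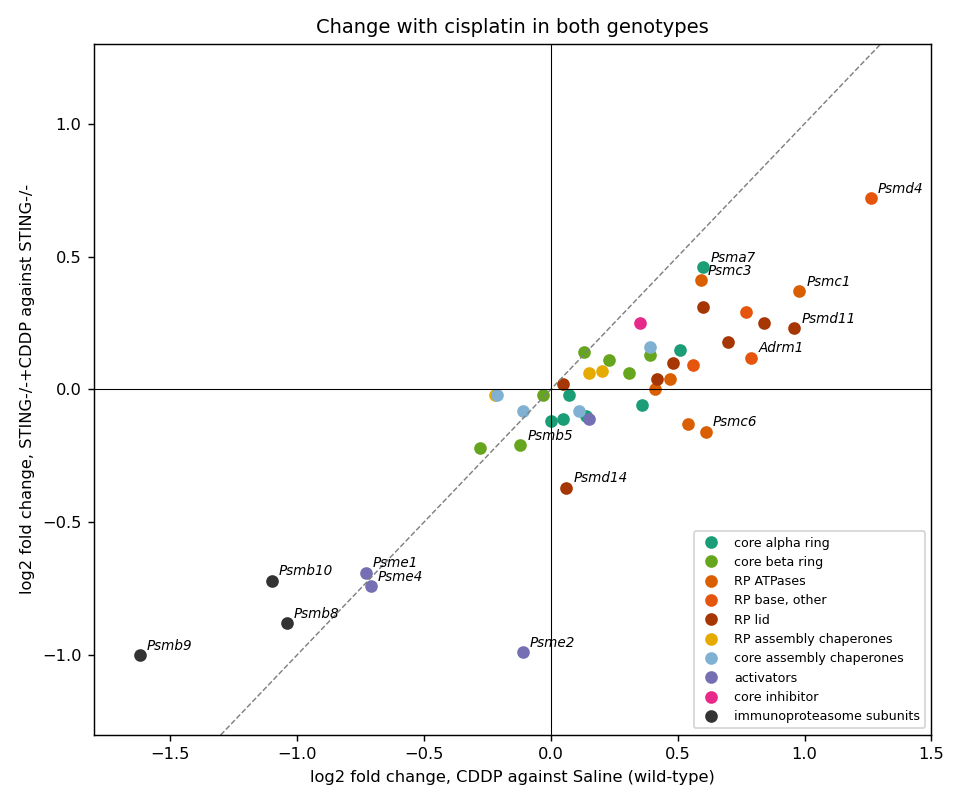
Log2 fold change with cisplatin in the wild-type (horizontal) and in STING-/- hearts (vertical) for the 44 members and 3 immunoproteasome subunits, colored by class, with the line of equal change dashed. The regulatory particle genes lie to the right of the line, with Psmd4 at 1.26 and 0.72, while Psme1 and Psme4 lie near it and Psme2 lies below it at -0.11 and -0.99.

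The difference between the responses was tested as an interaction, and 0 of 44 members passed in limma, where 0.00724% of all tested genes did, a single gene. At an unadjusted p under 0.05, 13 members had a difference, 12 of them regulatory particle subunits and the other Psme2, where 11.7% of all tested genes did. The members' median interaction was -0.24 beside -0.101 for all genes. Psmd11 had -0.73 (95% interval -1.13 to -0.33, adjusted p = 0.308), Adrm1 -0.67 (-1.03 to -0.30, adjusted p = 0.308) and Psmd4 -0.54 (-0.94 to -0.15, adjusted p = 0.342). A weaker response of the regulatory particle genes in STING-/- hearts was thus seen in these values but did not pass the test.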

How the data were processed

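Cardiac tissues of 12 male mice were analysed by RNA-seq. The deposited table held TPM for each gene in every heart, with columns of group means that were not used. The submitters' processing notes name fastp, HISAT, RSEM and GRCm38.p5, without order or versions. TPM keep no read counts, so the depth per heart is unknown. Groups were taken from genotype and treatment in the labels. No source says that same-numbered hearts are related.

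Values were transformed to log2(TPM + 1), the filter kept genes with a TPM of 1 or more in 3 or more hearts, and a model with group means was fitted to all 12 hearts (8 residual degrees of freedom) with limma 3.58.1 in R 4.3.3, with eBayes and a trend, two-sided, with Benjamini-Hochberg adjustment and a threshold of 0.05. The added 1 makes fold changes of low genes smaller.

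Near-identical copies of the members were found among GENCODE M21 transcripts with BLAST 2.17.0, and promoter windows came from RefSeq. Members and lists were chosen with earlier results of these data known. Named were all members that passed, catalytic subunits, ubiquitin receptors, Psmd14, activators, Psmf1, tissue-restricted members, the highest and lowest member of each class, and genes of the comparison lists that passed. Paaf1, a list gene, was not found by symbol. Psmd3, Psmd8, Sem1, Psma4, Psmb2 and Psmg4, and members named where their values missed the threshold, were chosen after their values were seen.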

Additional observations from a re-analysis of the deposited data

How the results depend on the processing

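No member that passed changed sign under any alternative. With each heart left out, the median of the members crossed 0 in STING-/- against Saline (-0.10 to 0.03) and in STING-/-+CDDP against STING-/- (-0.03 to 0.11). In CDDP against Saline the members that passed fell from 20 to 9 when only the 6 hearts compared were fitted, and ranged from 12 to 19 with each heart left out. The other alternatives gave 18 to 21, and the median of the members stayed at 0.25 to 0.36. Over all tested genes, 2610 passed in the model of 12 hearts and 822 with only the groups compared. With each heart left out, 1241 to 2548 did. In STING-/-+CDDP against CDDP the count was 0 without a filter, with only the groups compared, with eBayes without a trend and with the replicate number as a block, 4 under the median of ratios, 5 under quantile normalization, 5 with the atrial covariate, and 0 to 4 with each heart left out. Its median was -0.19 under the median of ratios and -0.14 under quantile normalization, and -0.33 to -0.25 with each heart left out. Over all tested genes, 168 passed in the model of 12 hearts and 390 with the atrial covariate. Scaling by the median of ratios gave 668 and quantile normalization 671. The fits without a trend, with the block, with only the groups compared and without a filter gave 160, 67, 38 and 12. In STING-/-+CDDP against STING-/- the count of 1 became 3 with only the groups compared, 2 under the median of ratios, 3 without mitochondrially encoded genes, 4 under quantile normalization, 7 with heart weights (arrayWeights), 2 with the replicate block, 2 with the atrial covariate, and 0 to 3 with each heart left out, and its median was 0.16 under the median of ratios. Over all tested genes 129 passed in this comparison, 613 with heart weights, 297 under quantile normalization and 242 under the median of ratios. The counts were 204 with only the groups compared, 192 without mitochondrially encoded genes, 182 with the atrial covariate and 114 with the block. The median interaction was -0.12 under the median of ratios and -0.09 under quantile normalization. In STING-/- against Saline and for the interaction, the count was 0 under every alternative. The causes were not tested, beyond fewer hearts in the fit of only the groups compared and with hearts left out. Over the 18 pairs of same-numbered hearts, deviations from the group means correlated at -0.333 to 0.261, with 4 above 0.1. With 3 hearts a group these values show no strong pairing by number and cannot exclude a weak one. With the block 18 members passed in CDDP against Saline, where 2175 of all tested genes did. An alternative that adds annotated copies to their genes was chosen after the values were seen and left the count at 20. The precision was limited by 3 hearts a group, with a median standard error of 0.216 over all tested genes and an unknown depth.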
